A study of Homo sapiens with 24 samples.

Results

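The genes described here code for integrins, the receptors through which cells hold on to the extracellular matrix, and for the proteins that gather on their cytoplasmic side in focal adhesions. A list of 44 genes was used, 18 integrin chains and 26 cytoplasmic or membrane-associated adhesion proteins, and every array probe annotated to a listed gene was taken. The array names 20042 genes in all. Of its 47309 probes, 75 belonged to 42 of the listed genes (32 probes for integrin chains and 43 for the others). CRK and FLNA were not analysed here. A probe was tested where at least 1 group had a detection p-value under 0.05 on its 2 arrays, which 22803 probes of the array and 56 member probes met. These 56 probes stood for 37 genes of 12529 tested, 22 of them for 15 integrin chains and 34 for 22 other members.

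The measurements were made in MDA-MB-231, an established human breast cancer line of the mesenchymal, hormone receptor negative kind, on Illumina HT12v4 bead arrays. In the transfections 290000 cells received 50 nM of a Dharmacon reagent and were collected after 48 h. The 12 groups of 2 arrays were a non-targeting mimic (NT control), 6 mimics (miR-655-3p, miR-544a, miR-410, miR-369-3p, miR-135a and miR-127-5p) and 5 inhibitors, one for each of these microRNAs except miR-127-5p. All groups shared the cell line, and there was no untransfected group and no non-targeting inhibitor. A mimic is a synthetic duplex that adds a microRNA to the cell, at levels a cell need not normally reach, and an inhibitor is an antisense oligonucleotide that binds the cell's own copy. Inhibitor groups thus differ from the NT control and the mimics in kind of reagent. Differences between them cannot be told apart from that one. Nothing in the labels says that the duplicates were separate cultures, so the p-values cover the spread of these arrays alone, which may be technical.

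Integrins are heterodimers of an alpha and a beta chain. Talin and the kindlins bind the cytoplasmic tail of the beta chain and bring the receptor into its ligand-binding state, and vinculin, zyxin, alpha-actinin and VASP tie it to actin filaments. Integrin-linked kinase (ILK), PINCH (LIMS1) and the parvins form a scaffold on the tail, while focal adhesion kinase (PTK2) with SRC, paxillin and BCAR1 carries the signal into the cell. Carcinoma cells use these contacts to spread and migrate on matrix.

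The mature microRNAs are shown because the 6 mimics were compared with each other throughout, and a microRNA selects most messages through its seed, bases 2 to 8 from the 5′ end, printed in capitals. The sequences are RefSeq's. The labels give no arm for miR-135a and miR-410, and the arms named below are the ones printed, not a statement on the reagent.
hsa-miR-127-5p: cUGAAGCUcagagggcucugau
hsa-miR-135a-5p: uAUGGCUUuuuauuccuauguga
hsa-miR-369-3p: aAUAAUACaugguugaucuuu
hsa-miR-410-3p: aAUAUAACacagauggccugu
hsa-miR-544a: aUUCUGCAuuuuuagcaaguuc
hsa-miR-655-3p: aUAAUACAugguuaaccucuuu
No pair of them has the same seed. The nearest are miR-369-3p and miR-655-3p, which have a run of 13 bases in common that starts at base 2 of the former and base 1 of the latter, so that 6 bases of the seeds overlap with an offset of 1. In GRCh38.p14 miR-127-5p lies at chr14:100883001-100883022, miR-544a at chr14:101048712-101048733, miR-655-3p at chr14:101049610-101049631, miR-369-3p at chr14:101065641-101065661 and miR-410-3p at chr14:101065961-101065981, all on the plus strand. The miR-135a-5p entry lies on another chromosome, at chr3:52294270-52294292 on the minus strand.

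Levels below are normalized bead signals, 2 to the power of the normalized log2 value, and are compared only within a probe. The signal at the detection threshold was 26.33 to 28.31. A probe was called where its adjusted p in limma was under 0.05 over all tested probes and its fold was at least 1.4, and log2 fold changes are given ± their standard error. Duplicates correlated at 0.987 to 0.997 over all probes, lowest in the miR-544a mimic group, and no arrays were identical. Of the markers of the line, VIM, CD44, AXL and MSN were detected on all 24 arrays, and ESR1 and CDH1 on 0. PGR was detected on 1 array. ERBB2 and EPCAM, looked at as well, were detected on all 24 arrays (signals of 606.4 to 958.3 and 487.3 to 3731). PTPRC, CD3E, VWF, CDH5, KRT5 and KRT14, which mark leukocytes, endothelium and keratinocytes, were detected on 0 arrays, whereas CD68 and KRT10 were detected on all 24, PECAM1 on up to 16, DCN on up to 8, LUM on up to 4 and PDGFRA on 1. Changes in cell number and in RNA per cell cannot be told apart in such extracts.

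Most of the adhesion machinery was well measured. Of the 56 tested member probes, 47 were detected on all 24 arrays. ITGB3, ITGB6, ITGB8, TNS1 and TNS4 had probes that did not reach the detection rule in any group. ITGA7 and ITGA9 were each detected on 14 arrays close to the threshold, and ITGA1 on 14.

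With every mimic except that of miR-127-5p, and with the mean of the inhibitors, more member probes were called lower than higher against the NT control. With the miR-135a mimic 11 member probes were lower and 3 higher, where 8.27% of all tested probes were lower and 8.14% higher. With the miR-544a mimic 13 were lower and 5 higher (9.8% and 11.2% of all tested probes), and with the miR-655-3p mimic 10 were lower and 4 higher (5.9% and 5.51%). As shares of the 56 probes, the lower calls were 19.6%, 23.2% and 17.9% for these 3 mimics. These lower probes stood for 9, 9 and 10 genes, since a gene can have several probes. Shares by gene over all tested genes were not computed. The miR-410 mimic had 6 lower and 1 higher (4.1% and 3.46% of all tested probes), the miR-369-3p mimic 3 lower and 2 higher (2.76% and 2.31%), and the miR-127-5p mimic 2 lower and 4 higher (8.02% and 7.75%). For miR-127-5p these were PARVA and ZYX among the lower and ITGB4 in 2 probes, ITGA5 and ITGA10 among the higher, and for miR-369-3p LIMS1, CAV2 and ITGB5 among the lower and ITGB4 and GRB2 among the higher. The mean of the 5 inhibitor groups had 7 lower and 2 higher (3.6% in either direction), with a median log2 fold change over the members of -0.21 beside 0.00 over all tested probes. For the mimics the members' median lay between -0.10 and 0.01. The same 2 NT arrays enter all of these comparisons. They were therefore repeated without NT arrays, each mimic against the mean of the inhibitor groups. Except for miR-127-5p, that mean includes the inhibitor of the mimic's own microRNA.

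Against the inhibitors the balance of the counts was different. The miR-127-5p mimic had 5 member probes lower and 13 higher (9.08% and 9% of all tested probes), the miR-135a mimic 7 lower and 10 higher (6.7% and 6.99%), and the miR-544a mimic 7 lower and 11 higher (10.2% and 10.3%). The miR-655-3p mimic had 4 lower and 3 higher (5.91% and 6.01%). With the miR-369-3p mimic 0 were lower and 1 higher, ITGB4 (1.75% and 1.68%), and with the miR-410 mimic 0 were lower and 1 higher, TNS3 (3.14% and 2.43%). The miR-369-3p count was 0 without either of its mimic arrays and 3 without miR-369-3p inhibitor replicate 1. The miR-410 count was 0 without miR-410 mimic replicate 2, miR-135a inhibitor replicate 1 or replicate 2 of the miR-410, miR-544a or miR-655-3p inhibitor, and 2 without miR-410 mimic replicate 1. The reference used is therefore part of each count, and the members described in detail below are those called the same way against both. There were 5 such probes for miR-127-5p, 8 for miR-135a, 1 for miR-369-3p, 0 for miR-410, 11 for miR-544a and 6 for miR-655-3p. The share of all tested probes called the same way against both was not computed. These counts therefore do not rank the mimics by their effect on the members.

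**Figure D1:**
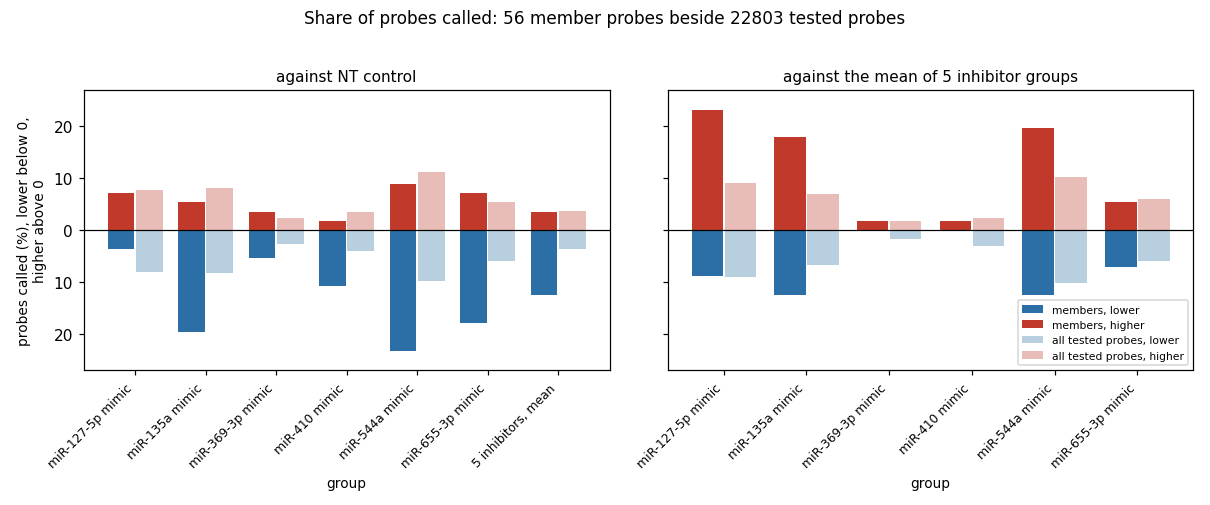
Share of probes called (%, lower plotted below 0 and higher above 0) for each mimic and for the mean of the 5 inhibitor groups, for the 56 member probes (dark bars) and for all 22803 tested probes (pale bars), against the NT control (left) and against the mean of the inhibitor groups (right). Lower calls among the members were 23.2% with the miR-544a mimic against the NT control and 12.5% against the inhibitors.

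The split of these calls also depends on scaling. When arrays were scaled to a common median in place of quantile normalization, the median log2 fold change over all tested probes lay between -0.19 and 0.12 instead of -0.01 and 0.02, and calls moved with it. The members then had, against the NT control, 12 lower and 0 higher for the miR-135a mimic, 7 and 0 for miR-410, 7 and 5 for miR-544a, 1 and 0 for miR-369-3p, 7 and 2 for miR-655-3p, and 7 and 0 for the mean of the inhibitors. Against the inhibitors the miR-135a mimic had 7 lower and 3 higher, miR-410 had 1 and 0, miR-544a had 3 and 14, and miR-369-3p had 0 calls. The shares of all tested probes under median scaling are not given here, so these splits cannot be read as particular to the members. Arrays left out in turn also moved counts. The miR-135a count against the NT control fell from 14 to 9 without NT control replicate 1, the miR-544a count from 18 to 11 without NT control replicate 1, to 10 without NT control replicate 2 and to 11 without miR-544a mimic replicate 2, and the inhibitor count from 9 to 5 without NT control replicate 1. With the miR-369-3p mimic 2 or 3 of the 5 calls against the NT control were counted without any of its 4 arrays, and with the miR-410 mimic 1 to 4 of 7.

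To see where each mimic stood among the 6, each was also compared with the mean of the other 5 mimic groups. A call here can also come from changes with the other mimics. Counted in either direction, 17 member probes were called for miR-127-5p (16.8% of all tested probes), 14 for miR-135a (12.7%), 2 for miR-369-3p (3.28%), 3 for miR-410 (5.5%), 21 for miR-544a (23.1%) and 10 for miR-655-3p (9.42%). The 2 for miR-369-3p were the dimmer PARVA probe (0.52, adjusted p = 0.00378) and the dimmest CAV2 probe (-0.59, adjusted p = 0.0149), and the 3 for miR-410 were ITGA2 (-0.59, adjusted p = 0.0242), the brighter ITGB4 probe (-0.71, adjusted p = 0.00317) and the dimmest CAV2 probe (-0.58, adjusted p = 0.0104). Against the NT control the brighter ITGB4 probe gave -0.01 with miR-410 and the dimmer PARVA probe 0.13 with miR-369-3p, neither called. These 2 calls therefore do not show a change with the mimic itself. As shares of the members the 6 counts were 30.4%, 25%, 3.57%, 5.36%, 37.5% and 17.9%. Under median scaling the miR-544a calls split into 5 lower and 15 higher, where the main normalization gave 10 and 11, the miR-135a calls into 9 and 0 against 8 and 6, the miR-369-3p calls into 0 and 2 against 1 and 1, and the miR-655-3p calls into 4 and 3 against 7 and 3, while miR-410 had 7 and 0 against 3 and 0. These splits, too, stand without the shares of all tested probes under median scaling and cannot be read as particular to the members. The miR-135a count was 9 without miR-135a mimic replicate 2. The miR-369-3p count was 0 without either of its arrays and 4 without miR-127-5p mimic replicate 1, and the miR-410 count was 1 without miR-410 mimic replicate 2 and 5 without either miR-544a mimic replicate 2 or miR-655-3p mimic replicate 1.

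The chain called with most mimics was ITGB4, the beta partner of ITGA6 in the laminin receptor of hemidesmosomes. It was higher with 4 mimics and lower with miR-544a. The brighter of its tested probes (ILMN_2334210) read 970.5 and 1025 in the NT control arrays, and from 664.6 to 1539 with a median of 1032 in the 10 inhibitor arrays. It read 2391 and 2959 with the miR-127-5p mimic, 2134 and 2540 under miR-655-3p, 1757 and 1956 under miR-135a, and 1570 and 1616 under miR-369-3p. With miR-544a it read 633.9 and 600.5, and with miR-410 871.7 and 1125. The arrays of the first 4 mimics lay above every NT and inhibitor array and those of miR-544a below every one, while miR-410 overlapped both references. The log2 fold change against the NT control was 1.42 ± 0.18 with miR-127-5p (2.67-fold, adjusted p = 3.3e-05), 1.22 ± 0.18 with miR-655-3p (adjusted p = 0.000185), 0.89 ± 0.18 with miR-135a (adjusted p = 0.00198), 0.68 ± 0.18 with miR-369-3p (adjusted p = 0.0368) and -0.69 ± 0.18 with miR-544a (adjusted p = 0.0094).

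Against the inhibitors the same probe gave 1.38 with miR-127-5p, 1.19 with miR-655-3p, 0.86 with miR-135a, 0.64 with miR-369-3p, and for miR-544a it gave -0.73, all called. Under median scaling the calls of miR-369-3p (0.80, adjusted p = 0.0631) and miR-544a (-0.56, adjusted p = 0.0694) against the inhibitors were lost. Compared with the other 5 mimics, miR-127-5p (1.00, adjusted p = 4.83e-05), miR-655-3p (0.77, adjusted p = 0.00102) and miR-544a (-1.53, adjusted p = 3.9e-07) stood apart, and miR-135a (0.37, adjusted p = 0.0679) and miR-369-3p (0.11, adjusted p = 0.71) did not pass. The ITGB4 calls were not equally firm. The miR-369-3p call against the NT control was lost without any of its 4 arrays (adjusted p from 0.143 to 0.201) and under median scaling (0.74, adjusted p = 0.258), and that against the inhibitors without either mimic array (adjusted p = 0.137 and 0.167). That of miR-135a was lost under median scaling (0.60, adjusted p = 0.171), and that of miR-544a under median scaling (-0.61, adjusted p = 0.158) and without either NT control replicate 2 or miR-544a mimic replicate 2 (adjusted p = 0.0649 and 0.0595). The dimmer tested ITGB4 probe was called with miR-127-5p (1.46 ± 0.36, lost without NT control replicate 1 or miR-127-5p mimic replicate 2, adjusted p = 0.0558 and 0.0619) and miR-544a (-1.55 ± 0.36) against the NT control, and gave uncalled values of 0.96, 0.73 and 1.05 with miR-135a, miR-369-3p and miR-655-3p. With miR-544a this dimmer probe read 164.2 and 45.62, beside 247 and 259 in the NT control. Both lay below every NT and inhibitor array, replicate 2 by far the lower. Another pair of ITGB4 probes stayed too dim to test.

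**Figure D2:**
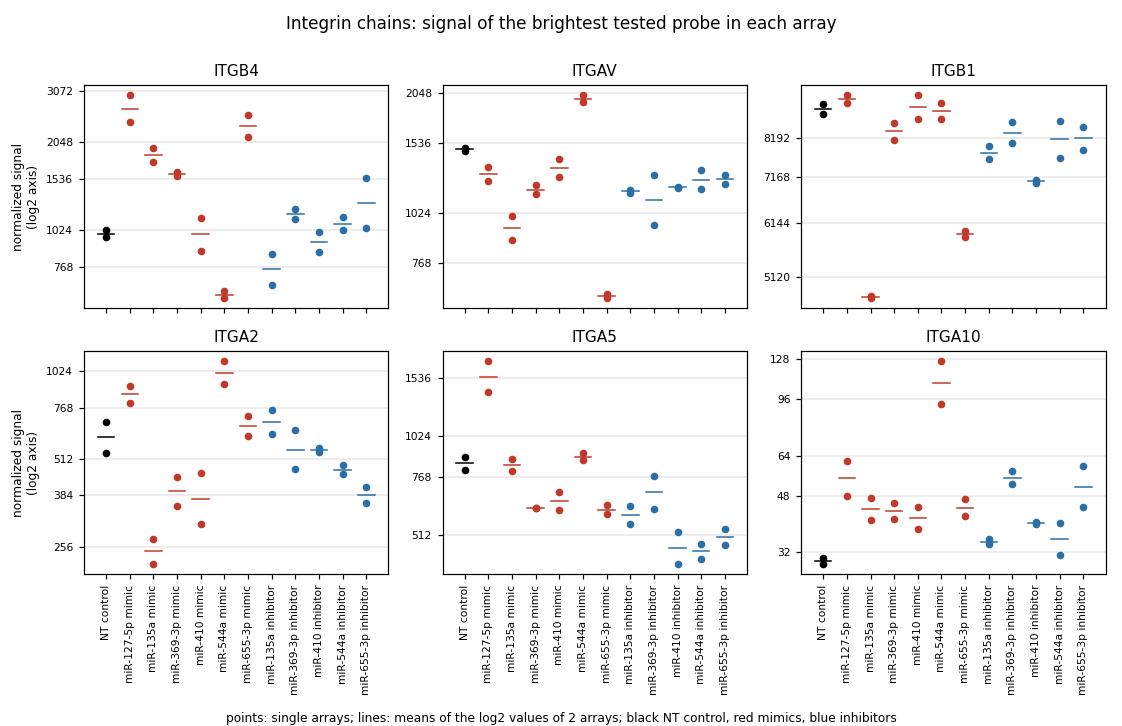
Normalized signal (log2 axis) of the brightest tested probe of ITGB4, ITGAV, ITGB1, ITGA2, ITGA5 and ITGA10 in each of the 24 arrays, by group. Points are arrays and lines are means of the log2 values of 2 arrays, in black for the NT control, red for mimics and blue for inhibitors. ITGB4 with the miR-544a mimic (600.5 and 633.9) lies below every inhibitor array, and ITGAV with the miR-655-3p mimic (626.6 and 642.3) below every other array.

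ITGB1, the beta chain that pairs with most alpha chains, was lower with the miR-135a mimic, as was ITGA2, its partner in a collagen receptor. The brighter ITGB1 probe (ILMN_1723467) read 9201 and 8882 in the NT control, 7041 to 8679 with a median of 7912 in the inhibitor arrays, and 4763 and 4795 with miR-135a. The miR-135a arrays were the lowest of all 24 and well apart from the rest. ITGB1 gave a log2 fold change of -0.92 ± 0.09 against the NT control (adjusted p = 3.25e-06) and -0.72 ± 0.07 against the inhibitors (adjusted p = 1.72e-06). The dimmer tested probe gave -1.52 ± 0.29 and -1.13 ± 0.22 in these comparisons, both called. In that probe miR-369-3p inhibitor replicate 2 read 1336, below the miR-135a mimic arrays (1540 and 1505), whereas its replicate 1 read 3363. With miR-655-3p the brighter probe read 5851 and 5984, a log2 fold change of -0.61 ± 0.09 against the NT control (adjusted p = 0.000231) and of -0.42 ± 0.07 against the inhibitors, the latter under the fold needed for a call. The dimmer probe was not called there (-0.54 ± 0.29). The other 4 mimics gave the brighter probe values of -0.11 to 0.05 against the NT control.

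ITGA2 (ILMN_1665792) moved in opposite directions with miR-135a and miR-544a. It read 685.8 and 537.9 in the NT control and 360.9 to 752.8 with a median of 513.8 in the inhibitor arrays. With miR-135a it read 223.4 and 273.2, below all of those, and with miR-544a 925.2 and 1106, above all of them. The log2 fold changes against the NT control were -1.30 ± 0.20 (adjusted p = 0.000226) and 0.74 ± 0.20 (adjusted p = 0.0131). The latter was lost without NT control replicate 2 (0.56, adjusted p = 0.14) or without miR-544a mimic replicate 2 (0.61, adjusted p = 0.112). ITGA2 was also lower with miR-410 (457.6 and 306.2, -0.70 ± 0.20), where the comparison with the inhibitors gave -0.47 and no call, and higher with miR-127-5p against the inhibitors only (0.72 ± 0.16).

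ITGAV, the alpha chain of the vitronectin receptors, separated miR-655-3p from the other mimics. Its probe (ILMN_2169439) read 1464 and 1494 in the NT control, 954.6 to 1313 with a median of 1187 in the inhibitor arrays, and 626.6 and 642.3 with miR-655-3p. These were the lowest 2 of the 24 values. ITGAV gave a log2 fold change of -1.22 ± 0.12 against the NT control (2.33-fold, adjusted p = 3.45e-06), -0.90 ± 0.09 against the inhibitors (adjusted p = 3.35e-06) and -1.04 against the other 5 mimics (adjusted p = 1.02e-06). With miR-135a ITGAV read 876 and 1006 (-0.66 ± 0.12 against the NT control, called, and -0.34 ± 0.09 against the inhibitors, not called). With miR-544a it read 1942 and 2019, above every NT and inhibitor array, with 0.42 ± 0.12 against the NT control, short of the fold for a call, and 0.74 ± 0.09 against the inhibitors (adjusted p = 1.69e-05).

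ITGA5, the alpha chain of the fibronectin receptor, was highest with the miR-127-5p mimic. Its probe (ILMN_1792679) read 811 and 886.4 in the NT control, 419.4 to 775.2 with a median of 529.1 in the inhibitor arrays, and 1395 and 1726 with miR-127-5p. The NT arrays themselves lay above all inhibitor arrays, and the miR-127-5p arrays above both. The log2 fold change was 0.87 ± 0.14 against the NT control (adjusted p = 0.000314) and 1.53 ± 0.11 against the inhibitors (adjusted p = 3.39e-08). The mean of the inhibitors was lower than the NT control (-0.66, adjusted p = 0.00071), and ITGA5 was accordingly called higher against the inhibitors, but not against the NT control, with miR-135a (0.65 and -0.02) and miR-544a (0.73 and 0.07).

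ITGA10, a collagen-binding alpha chain known from cartilage, was dim in the line and highest with miR-544a. It read 30.8 and 29.42 in the NT control, 31.33 to 59.41 with a median of 39.63 in the inhibitor arrays, and 92.69 and 125.7 with miR-544a. The NT arrays were the lowest of all, just above the detection threshold, and the miR-544a arrays stood clear of the others. For miR-544a the log2 fold change was 1.84 ± 0.18 against the NT control (adjusted p = 1.21e-06), 1.35 ± 0.14 against the inhibitors (adjusted p = 1.37e-06) and 1.26 against the other mimics (adjusted p = 2.3e-06). Against the NT control alone it was also higher with miR-127-5p (0.86), miR-655-3p (0.55) and miR-135a (0.54), which gave 0.37, 0.06 and 0.05 against the inhibitors and no call.

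ITGA3, the alpha chain of a laminin receptor, had probes that differed with miR-544a. The dimmer probe read 153.8 and 140.5 in the NT control and 113.6 and 23.77 with miR-544a, so that the low mean came from replicate 2. Its log2 fold change was -1.50 ± 0.51 (adjusted p = 0.0376), and without miR-544a mimic replicate 2 it was -0.37 (adjusted p = 0.603). It was also lost without either NT control array (adjusted p = 0.148 and 0.113). Against the inhibitors it was -1.06 (adjusted p = 0.0472) and 0.07 without that replicate, and the call also ended without any inhibitor array but miR-655-3p inhibitor replicate 1 (adjusted p from 0.0525 to 0.071). Without background correction the value against the inhibitors was -0.40 (adjusted p = 0.0854), and the call also ended under median scaling (adjusted p = 0.0524) and with no filter (adjusted p = 0.0965). The call against the NT control ended with no filter (adjusted p = 0.0783) and with the authors' log2 values (adjusted p = 0.0509). The brighter ITGA3 probe read 4929 and 4260 with miR-544a beside 5640 and 5826 in the NT control (-0.32 ± 0.13, not called).

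Of the remaining chains, ITGA6, ITGB5 and ITGB2 were called in part. The brighter ITGA6 probe was lower against the NT control with miR-410 (-0.81 ± 0.20) and miR-544a (-0.58 ± 0.20) and with the mean of the inhibitors (-0.71), and higher with miR-127-5p against the inhibitors (0.75 ± 0.16). The dimmer ITGA6 probe was not detected with miR-135a, miR-410 or miR-544a and was called lower there, at least 1.23-fold, 1.24-fold and 1.26-fold. These bounds set the NT mean against the signal at the detection threshold. The NT control was the only group with this probe detected on both arrays, so it was tested because it was high there, and its lower calls, which are part of every count of lower calls against the NT control with these mimics and with the mean of the inhibitors, are a description and no support. ITGB5, the beta chain of another vitronectin receptor, was higher with miR-135a against the inhibitors in all of its 3 tested probes (0.64 to 0.74) and in none against the NT control (0.16 to 0.30). Its middle probe was lower with miR-369-3p against the NT control (-0.51 ± 0.10). ITGB2, the beta chain of leukocyte integrins, was lower with miR-135a against the NT control in its brighter probe (-0.49 ± 0.14) and gave -0.14 against the inhibitors. ITGA4 was higher with miR-544a against the inhibitors (0.61 ± 0.11) and gave 0.36 against the NT control, not called. ITGA1, ITGA7, ITGA9 and ITGA11 were called with no mimic against either reference.

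Among the proteins that bind the beta tail, FERMT2 (kindlin-2) had the largest change against the NT control. Its probe (ILMN_1695290) read 2631 and 2658 in the NT control, 1426 to 2238 with a median of 1714 in the inhibitor arrays, 689.8 and 694.1 with miR-135a and 1187 and 1296 with miR-655-3p. Both mimics lay below every other array, miR-135a furthest. With miR-135a the log2 fold change was -1.93 ± 0.12 against the NT control (3.82-fold, adjusted p = 2.86e-08) and -1.35 ± 0.09 against the inhibitors (adjusted p = 3.58e-08). With miR-655-3p it was -1.09 ± 0.12 (adjusted p = 1.03e-05) and -0.51 ± 0.09 (adjusted p = 0.000846). The miR-655-3p call against the inhibitors ended under median scaling (-0.42, adjusted p = 0.076), without background correction (-0.48), without miR-655-3p mimic replicate 1 (-0.44) and without miR-369-3p inhibitor replicate 2 (-0.47). In the other direction FERMT2 read 3340 and 3932 with miR-127-5p and 3343 and 3081 with miR-544a, above every NT and inhibitor array. These differences were called against the inhibitors (1.04 and 0.87) and not against the NT control (0.46 and 0.28), since the inhibitors themselves were lower than the NT control (-0.59, adjusted p = 0.000502).

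FERMT1 (kindlin-1), the epithelial kindlin, was higher with miR-655-3p and miR-544a. It read 152.6 and 148.8 in the NT control, 137 to 185.2 with a median of 152.3 in the inhibitor arrays, 256.2 and 268.6 under miR-655-3p and 219.4 and 337 under miR-544a. Both mimics lay above every NT and inhibitor array. The log2 fold changes against the NT control were 0.80 ± 0.17 (adjusted p = 0.0039, lost under median scaling at adjusted p = 0.0709) and 0.85 ± 0.17 (adjusted p = 0.00131), and against the inhibitors 0.77 and 0.82, both called. With miR-127-5p FERMT1 read 117.1 and 111.9, below every NT and inhibitor array, and gave -0.40 ± 0.17 against the NT control and -0.42 ± 0.13 against the inhibitors (adjusted p = 0.0207), short of the fold for a call. With miR-655-3p the 2 kindlins thus moved in opposite directions.

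TLN1, the main talin, was lower with miR-655-3p alone among the mimics called. Its probe (ILMN_1696643) read 878.2 and 912.1 in the NT control, 874 to 1055 with a median of 923.3 in the inhibitor arrays, and 517.7 and 464.5 with miR-655-3p. These were the lowest values of the 24 arrays, with a wide gap to the next. TLN1 gave a log2 fold change of -0.87 ± 0.12 against the NT control (adjusted p = 8.66e-05), -0.94 ± 0.09 against the inhibitors (adjusted p = 1.55e-06) and -0.96 against the other 5 mimics (adjusted p = 1.79e-06). The other mimics gave -0.20 to 0.47 against the NT control, the highest with miR-135a (1208 and 1268), short of the fold for a call. TLN2 was lower against the NT control with miR-544a (-0.70 ± 0.19) and miR-655-3p (-0.67 ± 0.19), without a call against the inhibitors (-0.27 and -0.24), and higher with miR-135a against the inhibitors (0.68 ± 0.15).

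In the ILK scaffold, LIMS1 (PINCH1) changed and ILK did not pass in its brighter probe. The brighter LIMS1 probe (ILMN_1733176) read 806.8 and 741 in the NT control, 434.8 to 621.8 with a median of 489.5 in the inhibitor arrays, and 286.3 and 222.9 with miR-135a. The miR-135a arrays were the lowest of the 24. This corresponded to a log2 fold change of -1.61 ± 0.12 against the NT control (adjusted p = 1.81e-07), -0.99 ± 0.10 against the inhibitors (adjusted p = 1.14e-06) and -1.21 against the other 5 mimics (adjusted p = 1.63e-07). The dimmer probe (73.81 and 73.87 with miR-135a, 159.4 and 163.6 in the NT control) gave -1.13 ± 0.34 (adjusted p = 0.026) and was lost without any of these 4 arrays (adjusted p from 0.0977 to 0.112). Against the inhibitors its call ended without either miR-135a mimic array (adjusted p = 0.0874 and 0.0851).

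The brighter LIMS1 probe also separated the groups in a way that crossed mimics and inhibitors. In the NT control, miR-127-5p mimic (770.4 and 768.8) and miR-544a mimic (779.7 and 730.5) arrays it lay at 730.5 or above, and in all other arrays at 621.8 or below. It was therefore called lower against the NT control with miR-655-3p (-0.78 ± 0.12), miR-369-3p (-0.69) and miR-410 (-0.53) and with the mean of the inhibitors (-0.62, adjusted p = 0.000342). Against the inhibitors these 3 mimics gave -0.16, -0.07 and 0.09, none called, and miR-127-5p and miR-544a were higher (0.62 and 0.59). The dimmer LIMS1 probe did not show this split. Against the NT control it gave 0.09 with miR-655-3p, 0.22 with miR-369-3p and -0.07 with miR-410, none called.

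ILK itself read 5616 and 5164 in the NT control, 4516 to 5671 with a median of 4867 in the inhibitor arrays, and from 5075 to 6729 over the mimic arrays. The miR-135a arrays (6392 and 6729) lay above every NT and inhibitor array, and the other 5 mimics overlapped the inhibitor arrays. The probe was called with no mimic and no inhibitor, with log2 fold changes against the NT control of -0.02 to 0.28. The highest, with miR-135a, had an adjusted p of 0.0568, and against the inhibitors miR-135a gave 0.41 ± 0.08 (adjusted p = 0.000878), short of the fold for a call. Its dimmer probe was higher with miR-127-5p against the inhibitors (0.85 ± 0.22) and gave 0.41 against the NT control, not called.

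The parvins couple ILK to actin. For PARVA the tested probes disagreed. The dimmer probe (ILMN_1756408) read 297.4 and 289.6 in the NT control, 236 to 328.6 with a median of 273.6 in the inhibitor arrays, 143.7 and 147.5 under miR-655-3p and 185 and 187.4 under miR-127-5p. Both mimics lay below all NT and inhibitor arrays, with close duplicates. The probe gave, against the NT control, -1.01 ± 0.12 with miR-655-3p (adjusted p = 2.4e-05) and -0.66 ± 0.12 with miR-127-5p (adjusted p = 0.000968), and against the inhibitors -0.90 and -0.55, all called. Without background correction the miR-127-5p values were -0.47 and -0.39, under the fold for a call. The brighter probe read 1217 and 1151 in the NT control, 1060 and 1205 under miR-655-3p (-0.07 ± 0.14) and 948.4 and 887.4 under miR-127-5p (-0.37 ± 0.14), neither called. PARVB was dim (26.83 to 52.42 over the mimic arrays in its brighter probe) and was called in its other probe only, higher with miR-544a against the inhibitors (0.82 ± 0.20).

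**Figure D3:**
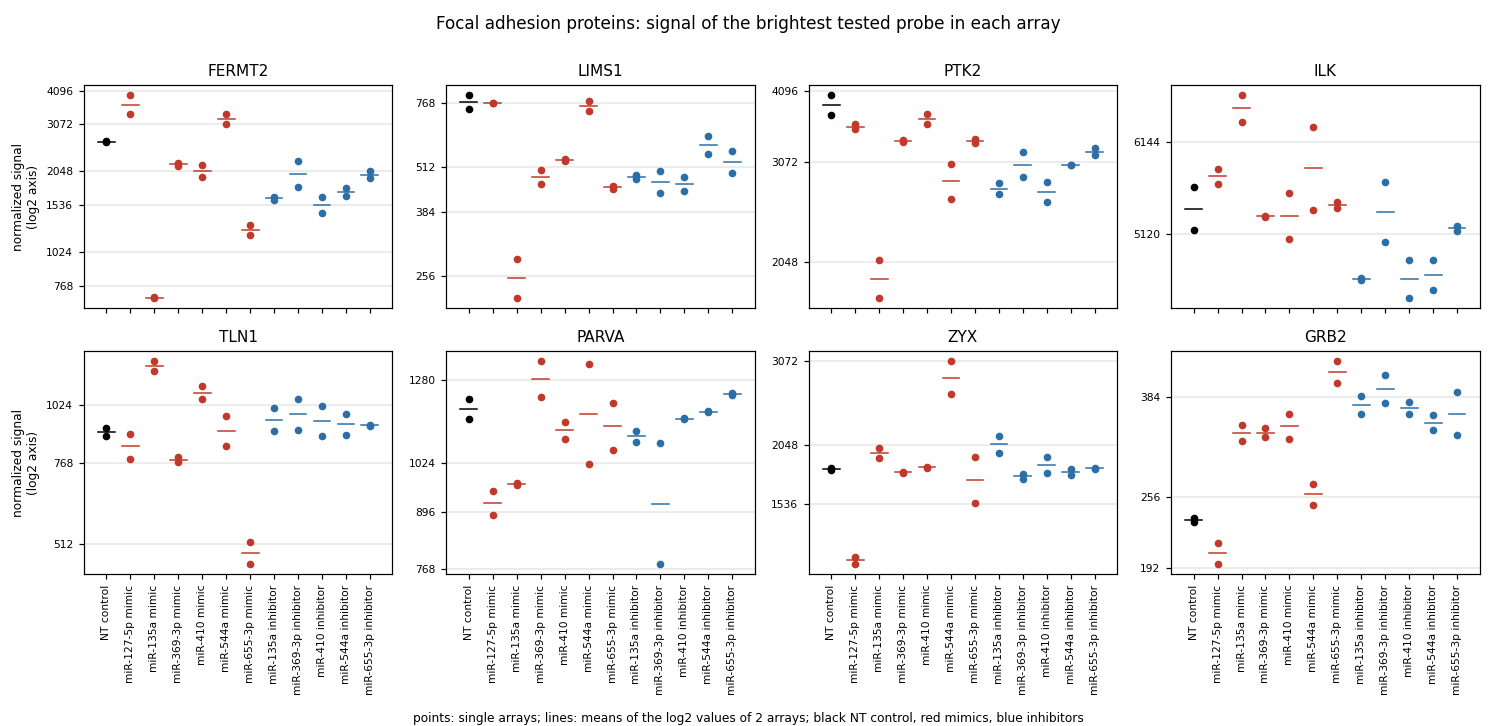
Normalized signal (log2 axis) of the brightest tested probe of FERMT2, LIMS1, PTK2, ILK, TLN1, PARVA, ZYX and GRB2 in each of the 24 arrays, by group. Points are arrays and lines are means of the log2 values of 2 arrays, in black for the NT control, red for mimics and blue for inhibitors. FERMT2 with the miR-135a mimic (689.8 and 694.1) and TLN1 with the miR-655-3p mimic (517.7 and 464.5) lie below all other arrays, and ILK with the miR-135a mimic (6392 and 6729) lies above every NT and inhibitor array.

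PTK2 codes for focal adhesion kinase. The brighter probe (ILMN_1714364) read 4021 and 3716 in the NT control, 2610 to 3253 with a median of 2959 in the inhibitor arrays, and 1772 and 2066 with miR-135a. The miR-135a arrays were the lowest of the 24, and the NT arrays lay above every inhibitor array. PTK2 gave a log2 fold change with miR-135a of -1.02 ± 0.10 against the NT control (adjusted p = 3.29e-06), -0.62 ± 0.08 against the inhibitors (adjusted p = 2.39e-05) and -0.80 against the other 5 mimics (adjusted p = 1.94e-06). With miR-544a it read 2642 and 3051 (-0.45 ± 0.10 against the NT control, short of the fold, and -0.05 against the inhibitors), and with the other 4 mimics -0.21 to -0.08 against the NT control. The dimmer PTK2 probe, at 24.52 to 84.65 over the mimic arrays, was called lower with miR-127-5p against the inhibitors (-0.63 ± 0.22) and gave -0.35 against the NT control. With miR-135a this dimmer probe gave -0.23 against the NT control, not called. With miR-544a it gave 0.71, opposite in direction to the brighter probe and also not called.

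The partners of the kinase changed less. SRC, paxillin (PXN) and BCAR1 (p130Cas) were called in none of the mimic comparisons, with log2 fold changes against the NT control of 0.05 to 0.36 for SRC, -0.10 to 0.28 for PXN and -0.22 to 0.09 for BCAR1. CRKL, an adaptor that binds BCAR1 and paxillin, was lower with miR-655-3p against the NT control (1405 and 1534 beside 2156 and 2273, -0.59 ± 0.12, adjusted p = 0.00245) and gave -0.40 ± 0.09 against the inhibitors, short of the fold.

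GRB2, the adaptor that links phosphorylated focal adhesion kinase to RAS, split the groups in its brighter probe as the brighter LIMS1 probe did, but in the opposite direction. The brighter probe (ILMN_1742521) read 231.2 and 234.7 in the NT control, 212.5 and 194.8 with miR-127-5p and 247.7 and 270.2 with miR-544a. It read 329.8 to 421.5 with a median of 367.4 in the inhibitor arrays and 321.2 to 444.7 with the other 4 mimics. Against the NT control it was higher with miR-655-3p (0.87 ± 0.11, adjusted p = 3.77e-05), miR-410 (0.55), miR-369-3p (0.51) and miR-135a (0.51) and with the mean of the inhibitors (0.66, adjusted p = 6.47e-05). Against the inhibitors these 4 gave -0.15 to 0.21, none called, and miR-127-5p (-0.86 ± 0.08) and miR-544a (-0.51 ± 0.08) were lower. The dimmer probe read 198.4 and 217 in the NT control, 202 to 462.8 with a median of 307.7 in the inhibitor arrays, and 126.5 and 71 with miR-544a. It was lower with miR-544a against both references (-1.13 ± 0.33, adjusted p = 0.0186, and -1.67 ± 0.26, adjusted p = 0.000108), where the brighter probe gave 0.15 against the NT control. The call against the NT control was lost without miR-544a mimic replicate 2 (-0.71, adjusted p = 0.228) and without either NT array (adjusted p = 0.0659 and 0.0985).

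At the actin end of the adhesion, zyxin (ZYX), a LIM protein recruited to tense filaments, was lower with miR-127-5p and higher with miR-544a. The brighter probe (ILMN_1701875) read 1810 and 1834 in the NT control, 1739 to 2141 with a median of 1824 in the inhibitor arrays, 1149 and 1191 with miR-127-5p and 3071 and 2625 with miR-544a. The miR-127-5p arrays were the lowest and the miR-544a arrays the highest of the 24. The log2 fold changes against the NT control were -0.64 ± 0.11 (adjusted p = 0.00044) and 0.64 ± 0.11 (adjusted p = 0.000342), and against the inhibitors -0.67 (adjusted p = 1.37e-05) and 0.61 (adjusted p = 3.34e-05). The dimmer probe gave 1.29 ± 0.24 with miR-544a against the NT control, called, and -0.56 ± 0.24 with miR-127-5p, not called, with both called against the inhibitors (1.13 and -0.72). The other 4 mimics gave the brighter probe -0.08 to 0.12 against the NT control.

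VASP, which extends actin filaments and binds zyxin, was called lower with miR-544a, and the 2 arrays differed widely. Its brighter probe (ILMN_1743646) read 232.2 and 219 in the NT control, 220.6 to 308.1 with a median of 256.4 in the inhibitor arrays, and 157.6 and 70.46 with miR-544a. Both arrays lay below the references, replicate 2 furthest. The log2 fold change was -1.10 ± 0.29 against the NT control (adjusted p = 0.00962) and -1.31 ± 0.22 against the inhibitors (adjusted p = 0.000274), and without miR-544a mimic replicate 2 it was -0.52 against the NT control (adjusted p = 0.194). Without NT control replicate 1 the adjusted p was 0.0619.

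Vinculin (VCL), which binds talin and actin, and alpha-actinin-4 (ACTN4), an actin crosslinker, passed in none of the mimic comparisons. Against the NT control the log2 fold changes were -0.29 to 0.06 for the brighter VCL probe and 0.12 to 0.46 for ACTN4. The dimmer VCL probe gave -0.94 to 0.15, the lowest with miR-544a, where its duplicates read 665.4 and 184.2. Alpha-actinin-1 (ACTN1) was lower with miR-655-3p against the NT control (-0.49 ± 0.15, adjusted p = 0.0431) and gave -0.25 against the inhibitors. Tensin 3 (TNS3), which joins the beta tail to actin, was lower with miR-135a (-0.51 ± 0.14) and miR-544a (-0.52 ± 0.14) against the NT control, without calls against the inhibitors, and higher with miR-127-5p (0.75 ± 0.11) and miR-410 (0.49 ± 0.11) against the inhibitors.

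Caveolins coat membrane invaginations and associate with integrins. CAV1 was lower with miR-544a. Its brighter probe read 10720 and 11400 in the NT control, 8539 to 10840 with a median of 9468 in the inhibitor arrays, and 6383 and 7498 with miR-544a, below all of them. It gave -0.68 ± 0.10 against the NT control (adjusted p = 0.000118) and -0.46 ± 0.08 against the inhibitors, just short of the fold, while the dimmer probe gave -0.88 ± 0.17 and -0.49 ± 0.13, both called. The latter values lost their calls under median scaling (-0.77, adjusted p = 0.0626, and -0.33, adjusted p = 0.28), and the call against the inhibitors also ended without miR-544a mimic replicate 1 (-0.34, adjusted p = 0.162) and, at -0.43 to -0.47, without miR-135a inhibitor replicate 2, miR-369-3p inhibitor replicate 1, miR-410 inhibitor replicate 2 or miR-655-3p inhibitor replicate 1. With miR-127-5p both probes were higher against the inhibitors (0.50 and 0.66). The dimmest of 3 tested CAV2 probes was lower against the NT control with miR-369-3p (-0.98 ± 0.17), miR-410 (-0.96), miR-655-3p (-0.69) and miR-544a (-0.68), none of which was called against the inhibitors. Against the inhibitors it was higher with miR-127-5p (1.06 ± 0.14, adjusted p = 1.49e-05) and miR-135a (0.57 ± 0.14), as was the middle probe (0.64 and 0.62). The middle probe was lower against the NT control with miR-410 (-0.63 ± 0.18) and miR-544a (-0.52 ± 0.18), and the brightest was called with no mimic.

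The inhibitors were also compared with the NT control group by group, counting calls in either direction. The NT control is a mimic, so the kind of reagent differs in each of these comparisons. There were 14 member probes called with the miR-135a inhibitor, 13 of them lower (11.6% of all tested probes), 12 with miR-369-3p, 9 of them lower (12.3%), and 13 with miR-410, 12 of them lower (9.31%). The miR-544a inhibitor had 3 (3.77%) and the miR-655-3p inhibitor 4 (3.22%). In all 5 comparisons the members' median was below 0 (-0.26, -0.20, -0.20, -0.18 and -0.12 in the same order), where that of all tested probes was -0.01 to 0.00. The brighter GRB2 probe was higher with each of the 5 inhibitors (0.57 to 0.77). ITGA5 was lower with 4 of them (-0.52 with miR-135a, -0.86 with miR-410, -0.89 with miR-544a, -0.74 with miR-655-3p), as was the brighter LIMS1 probe (-0.69 with miR-135a, -0.73 with miR-369-3p, -0.75 with miR-410 and -0.55 with miR-655-3p). FERMT2 was lower with the inhibitors of miR-135a (-0.70), miR-410 (-0.79) and miR-544a (-0.63), and the brighter PTK2 probe with those of miR-135a (-0.49) and miR-410 (-0.51). FERMT2 and the brighter probes of LIMS1 and PTK2 were thus lower than the NT control with both the miR-135a mimic and the miR-135a inhibitor. The difference of the mimic from the mean of the inhibitors is given above. With the miR-135a inhibitor the dimmer LIMS1 probe had a mean of 168.3 beside 161.5 in the NT control. The dimmer PTK2 probe had a mean of 60.41 there, beside 41.92 in the NT control. VCL, which passed with no mimic, was lower with the inhibitors of miR-135a (-0.54) and miR-410 (-0.49), and ACTN4 was higher with that of miR-369-3p (0.53).

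**Figure D4:**
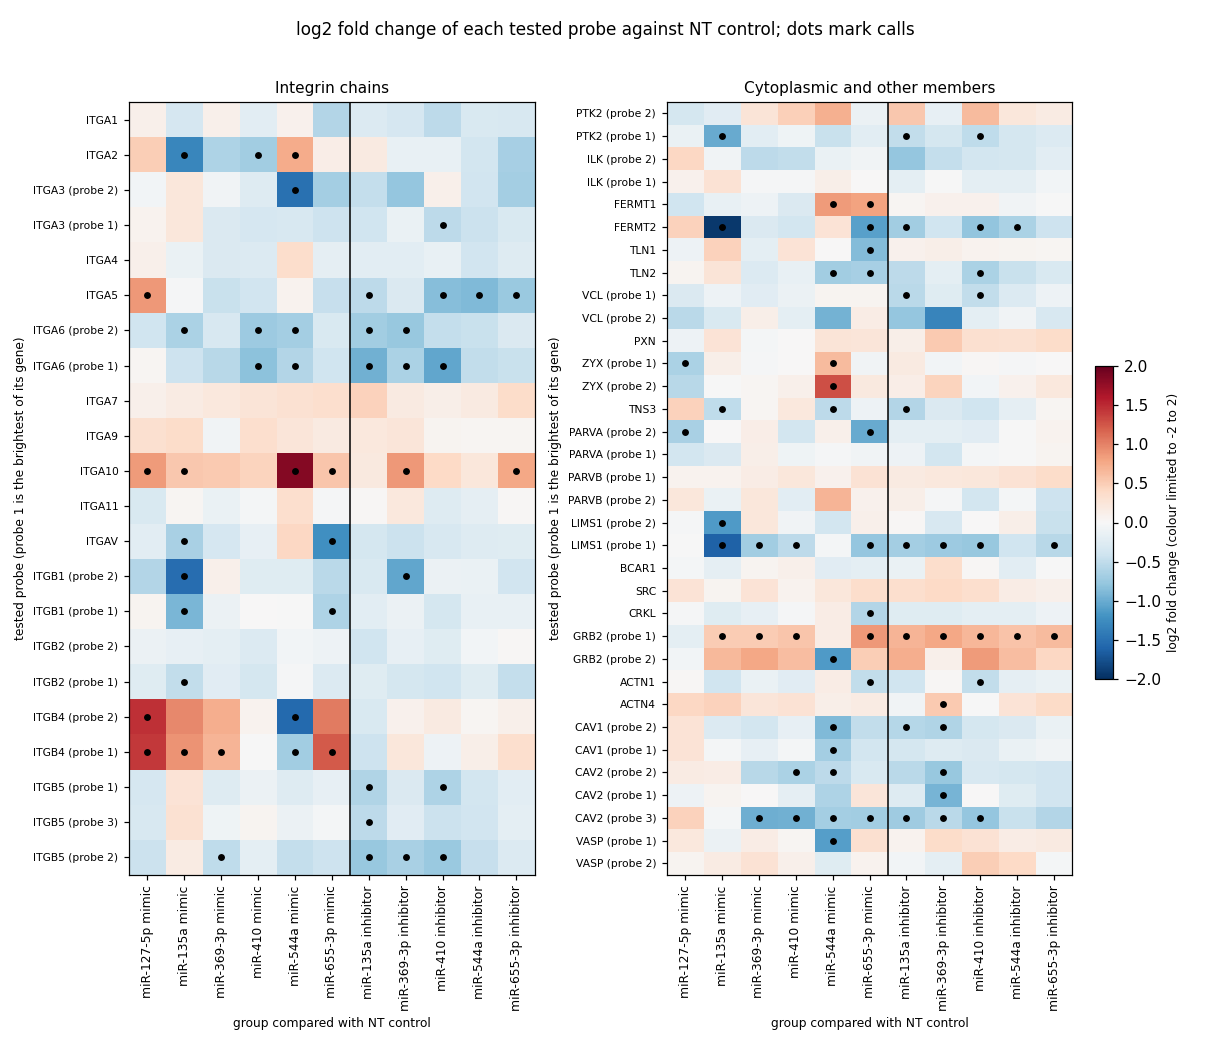
log2 fold change against the NT control (colour, limited to -2 to 2) of the 22 integrin chain probes (left) and the 34 probes of the other members (right) for each of the 6 mimics and 5 inhibitors, with dots on called values. Probe 1 of a gene is its brightest tested probe. ITGB4 is higher with 4 mimics and lower with miR-544a, and GRB2 probe 1 is higher with all 5 inhibitors.

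Probes of a gene often gave different calls. Of 102 combinations of a mimic with a gene that had 2 or more tested probes, 8 had all probes called against the NT control, 25 had some, and 69 had none. In 0 combinations were probes of a gene called in opposite directions. The calls were also counted separately for the integrin chains and the other members. With miR-127-5p against the NT control the chains had 0 lower and 4 higher of 22 (0% and 18.2%). The others had 2 lower and 0 higher of 34 (5.88% and 0%), beside 8.02% and 7.75% of all tested probes. With miR-655-3p the chains had 2 lower and 2 higher (9.09% each). The others had 8 lower and 2 higher (23.5% and 5.88%), beside 5.9% and 5.51% of all tested probes. With miR-135a the chains had 6 lower and 2 higher (27.3% and 9.09%). The others had 5 lower and 1 higher (14.7% and 2.94%), beside 8.27% and 8.14% of all tested probes. With miR-544a the chains had 5 lower and 2 higher (22.7% and 9.09%), close to the 8 lower and 3 higher of the others (23.5% and 8.82%). The shares of all tested probes were 9.8% and 11.2%. The miR-410 mimic had 3 lower and 0 higher among the chains (13.6% and 0%) and 3 and 1 among the others (8.82% and 2.94%). All tested probes gave 4.1% and 3.46%. The miR-369-3p mimic had 1 and 1 among the chains (4.55% each) and 2 and 1 among the others (5.88% and 2.94%). All tested probes gave 2.76% and 2.31%. The difference between the 2 kinds of member was not tested.

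Further genes of the adhesion pathway were counted from a list of 84, of which 63 had 106 tested probes. Lower and higher calls against the NT control numbered 14 and 6 for the miR-655-3p mimic (13.2% and 5.66%, beside 5.9% and 5.51% of all tested probes) and 4 and 13 for miR-127-5p (3.77% and 12.3%, beside 8.02% and 7.75%). For miR-544a they were 12 and 12 (11.3% each, beside 9.8% and 11.2%), and for miR-135a 10 and 9 (9.43% and 8.49%, beside 8.27% and 8.14%), both near the share of all tested probes. There were 6 and 3 for miR-410 (5.66% and 2.83%, beside 4.1% and 3.46%) and 4 and 1 for miR-369-3p (3.77% and 0.943%, beside 2.76% and 2.31%). Against the inhibitors the miR-127-5p mimic had 3 and 25 (2.83% and 23.6%, beside 9.08% and 9%), miR-655-3p had 12 and 12 (11.3% each, beside 5.91% and 6.01%), miR-544a had 11 and 13 (10.4% and 12.3%, beside 10.2% and 10.3%), and miR-135a had 5 and 10 (4.72% and 9.43%, beside 6.7% and 6.99%). The counts were 2 and 3 for miR-410 (1.89% and 2.83%, beside 3.14% and 2.43%) and 3 and 2 for miR-369-3p (2.83% and 1.89%, beside 1.75% and 1.68%). The highest called gene with miR-127-5p was PDLIM7, a LIM protein of actin fibres (1.89 ± 0.13, adjusted p = 4.32e-08), which was also the highest with miR-369-3p (0.91) and miR-410 (0.72). It was FERMT3, the kindlin of blood cells, with miR-544a (1.29) and miR-135a (0.90), and PTK2B, the kinase related to PTK2, with miR-655-3p (0.77). Set against the inhibitors, PDLIM7 gave 1.52, 0.54 and 0.35 with these 3 mimics, the last not called, FERMT3 0.89 and 0.50 and PTK2B 0.75, all called. The lowest called genes were RAP1A with miR-127-5p (-1.02), PTPN1 with miR-135a (-1.23), PPP1R12A with miR-369-3p (-0.75), CD82 with miR-410 (-0.83), LYN with miR-544a (-1.13) and SORBS2 with miR-655-3p (-1.28). Set against the inhibitors, RAP1A gave -0.43 (adjusted p = 0.222) and PPP1R12A -0.02 (adjusted p = 0.947), not called, whereas PTPN1 (-1.25), CD82 (-0.81), LYN (-0.75) and SORBS2 were called. RAP1A is a small GTPase that activates integrins through talin, PTPN1 a phosphatase and LYN a kinase of the SRC family.

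Genes for integrin ligands, 24 with 33 tested probes, were lower more often than higher with 4 mimics against the NT control. The miR-655-3p mimic had 10 lower and 2 higher (30.3% and 6.06%, beside 5.9% and 5.51% of all tested probes), miR-135a had 5 and 1 (15.2% and 3.03%, beside 8.27% and 8.14%), miR-369-3p had 5 and 0 (15.2% and 0%, beside 2.76% and 2.31%), and miR-410 had 5 and 1 (15.2% and 3.03%, beside 4.1% and 3.46%). These stand beside 6 and 7 for miR-544a (18.2% and 21.2%, beside 9.8% and 11.2%), 4 and 6 for miR-127-5p (12.1% and 18.2%, beside 8.02% and 7.75%), and 8 and 0 for the mean of the inhibitors (24.2% and 0%, beside 3.6% in either direction). Against the inhibitors the balance was again different. The miR-655-3p mimic had 4 lower and 3 higher (12.1% and 9.09%, beside 5.91% and 6.01%), and miR-135a had 3 and 6 (9.09% and 18.2%, beside 6.7% and 6.99%). The miR-410 mimic had 3 and 5 (9.09% and 15.2%, beside 3.14% and 2.43%), and miR-369-3p had 0 and 0 (beside 1.75% and 1.68%). The higher calls were most numerous for miR-544a, with 2 and 10 (6.06% and 30.3%, beside 10.2% and 10.3%), and miR-127-5p, with 1 and 11 (3.03% and 33.3%, beside 9.08% and 9%).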

How the data were processed

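Total RNA of transfected MDA-MB-231 cells was hybridised to 24 Illumina HT12v4 arrays, 2 per group. The deposited files give the raw signal intensity of each probe and a detection p-value, which the authors obtained from the negative control beads of that array. The authors' own log2 table, background-subtracted and quantile normalized in BeadStudio, served as an alternative (13353 to 13395 values per array are missing in it).

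The intensities were background-corrected from the detection p-values, given an offset of 16, quantile normalized and log2 transformed (neqc, limma 3.58.1, R 4.3.3). Of 47309 probes, 30109 carried 1 gene symbol, 8 several and 17192 none, and 24506 were too dim to test. The median signal per array was 101.7 to 123.1, with 19754 to 21286 probes detected, and precision is limited by there being 2 arrays per group. A linear model of 12 group means was fitted in limma (12 residual and 3.96 prior degrees of freedom), and p-values were two-sided and adjusted by Benjamini and Hochberg. The fold of 1.4 and the false discovery rate of 0.05 are those of the study's methods. Their test, SAM, regroups samples, for which 2 arrays against 2 are too few, and was not run.

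The members and the further gene lists were chosen with earlier results of these data known. Values per array were given for members called the same way against both references, up to 6 genes per mimic by size of the change, and for PTK2, ILK, TLN1, ITGB1 and ITGAV, with the brightest tested probe named. The fit was tested on simulated data. Alternatives were no background correction, median scaling, the deposited log2 table, no filter, a filter on detection in all 24 arrays, the replicate number as a block, and each array left out.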

Additional observations from a re-analysis of the deposited data

How the results depend on the processing

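Of 19 counts of called member probes, 13 stayed within 1.5 times without background correction and 13 under median scaling, and all 19 with the deposited log2 table, with no filter and with the stricter filter. Without background correction the miR-369-3p mimic had 3 calls against the NT control, 2 against the inhibitors and 1 against the other mimics (5, 1 and 2 in the reported settings), the miR-410 mimic 4 against the NT control and 0 against the inhibitors (7 and 1), and the mean of the inhibitors 5 against the NT control (9). Under median scaling the miR-369-3p mimic had 1 call against the NT control and 0 against the inhibitors, the miR-655-3p mimic 9 against the NT control (14), the miR-135a mimic 10 against the inhibitors and 9 against the other mimics (17 and 14), and the miR-410 mimic 7 against the other mimics (3). These counts were not set beside the shares of all tested probes under the same settings.

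With each array left out in turn, calls against the NT control ranged from 9 to 11 for the miR-135a mimic, 2 to 3 for miR-369-3p, 1 to 4 for miR-410, 10 to 20 for miR-544a and 5 to 11 for the mean of the inhibitors. Against the inhibitors they ranged from 0 to 3 for miR-369-3p and 0 to 2 for miR-410, and against the other mimics from 9 to 16 for miR-135a, 0 to 4 for miR-369-3p and 1 to 5 for miR-410. The other counts stayed within 1.5 times. With an array left out its group has fewer arrays, and the estimate of the spread changes as well.

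Of 62 values of named probes called against both references, 57 kept their call without background correction, 52 under median scaling, 61 with the deposited table, 58 with no filter and 60 of 60 with the stricter filter. With an array left out, 453 of 496 kept it, 42 lost it, and 1 changed direction: the dimmer ITGA3 probe with the miR-544a mimic against the inhibitors was -2.19 without miR-544a mimic replicate 1 and 0.067 without replicate 2, beside -1.06 with both. The cause was not tested. The 496 values pool both references. Against the inhibitors most arrays left out were among the 10 inhibitor arrays, which leaves most of the reference in place. The total is therefore no measure of how firm the calls against the NT control were.

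The replicate numbers showed no consistent pairing of the arrays: over 66 pairs of groups, the deviations of same-numbered arrays correlated at -0.485 to 0.521 (median 0.0411), with 27 pairs over 0.1. Influences shared by only some of the groups were not tested. With the replicate number as a block the counts stayed within 1.5 times (14 for the miR-135a and 18 for the miR-544a mimic against the NT control, and 8 in place of 7 for miR-655-3p against the inhibitors), and all 62 named values kept their calls. Signals near the detection threshold of 26.33 to 28.31, as for ITGA1, ITGA7, ITGA9, ITGA11 and PARVB, limit what could be called.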
